A study of Mus musculus with 6 samples.

Results

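The genes described here are *Dzip3* and the other enzymes that attach ubiquitin to histone H2A or remove it, in mouse embryonic stem (mES) cells. They were chosen by name for their role, not by their values, although earlier results of these data were known when they were chosen. They are the ligase genes *Dzip3*, *Rnf8* and *Rnf168*, the deubiquitinase genes *Usp16*, *Usp21*, *Usp22*, *Usp3*, *Bap1* and *Mysm1*, and *Asxl1*, whose product is the cofactor of BAP1. These are 10 of the 16668 genes listed, and all 10 were listed in every library and passed the filter on low values (0.5 RPKM or more on average, which 11538 genes passed). RPKM is the number of reads of a gene scaled to the length of its exons and to all mapped reads of the library.

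RNA-seq was performed on E14 mES cells of the 129/Ola strain at an early passage, grown without feeder cells on gelatin in 2i medium with LIF. 2i is a serum-free medium with PD0325901, an inhibitor of MEK, and CHIR99021, an inhibitor of GSK3, and all 6 libraries come from cells kept this way and transfected with siRNA. The sample labels give 3 groups of 2 libraries: control (wild type with control siRNA), Ring1B-KD (knockdown of Ring1B, the main H2A ubiquitin ligase of these cells, encoded by *Rnf2*) and Dzip3-KD. A knockdown by siRNA is transient and partial and leaves the gene itself intact, and E14 is a single cell line, so the libraries of a group need not stand for separate lines.

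The name of each deposited file carries a condition word, and for 4 of the 6 libraries this word differs from the sample label. Both are therefore given here for each library, and for the differences of *Dzip3* and *Rnf2*. Differences of other single genes are mostly given by name alone, and the word in the name need not be the condition. Libraries are numbered 1 to 6 by the number in the file name. Library 1 is labelled control 1 and named control. Library 2 is labelled control 2 but named Ring1BKD, and library 3 is labelled Ring1B-KD 1 but named Dzip3KD. Library 4 is labelled Ring1B-KD 2 but named control, and library 5 is labelled Dzip3-KD 1 but named Ring1BKD. Library 6 is labelled Dzip3-KD 2 and named Dzip3KD. Each set of 3 numbers (1-3 and 4-6) holds each condition word once, so a comparison by name can be made within a set. "Labelled" refers below to the sample label and "named" to the word in the file name.

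Depth recovered from the values was 3015350 to 3583613 mapped reads per library, at which 3 reads on a 2 kb transcript correspond to 0.419 to 0.497 RPKM. The cells carried the markers of ES cells, since 10 of 10 genes such as *Pou5f1*, *Sox2* and *Nanog* were listed and summed to between 1534 and 2103 RPKM. Of these, 0 were under 0.5 RPKM in all libraries. Sums for other lineages were far lower: 1.09 to 2.88 RPKM for 6 primitive endoderm genes, 1.68 to 6.81 for 4 trophectoderm genes, 1.18 to 3.10 for 3 fibroblast genes and 3.51 to 9.33 for 4 neural genes. Only 4 of the 5 trophectoderm and 3 of the 5 fibroblast markers chosen were listed. The lists hold no gene at 0 in every library, so being listed above 0 says little.

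Ubiquitin on H2A is written and erased by different enzymes for different purposes. Polycomb repressive complexes place it near the carboxyl end of the histone at silent developmental genes through Ring1B, whereas RNF8 and RNF168 act in chromatin around DNA double-strand breaks, where ubiquitin at the amino end of H2A recruits repair proteins. DZIP3, also called 2A-HUB, is a RING ligase described with the N-CoR and histone deacetylase corepressors. Most of the erasers are cysteine proteases of the USP family, BAP1 belongs to the UCH family and needs ASXL1 for activity on nucleosomes, and MYSM1 is a metalloprotease.

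The catalytic stretches of these enzymes show the chemical classes that the group brings together. They are given as coding sequence of the NCBIM37 (mm9) genome with its GENCODE annotation, 5′ to 3′ on the gene's own strand. The capitals in the 3 ligases mark the codons of the cysteines and histidines that hold zinc in the RING domain, the part that binds the ubiquitin-loaded E2 enzyme.
Dzip3: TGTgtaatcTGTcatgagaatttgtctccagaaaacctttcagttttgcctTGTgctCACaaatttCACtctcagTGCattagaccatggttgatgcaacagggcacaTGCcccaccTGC
Rnf8: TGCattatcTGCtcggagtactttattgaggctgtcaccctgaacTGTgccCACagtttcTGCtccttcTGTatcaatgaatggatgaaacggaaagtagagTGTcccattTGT
Rnf168: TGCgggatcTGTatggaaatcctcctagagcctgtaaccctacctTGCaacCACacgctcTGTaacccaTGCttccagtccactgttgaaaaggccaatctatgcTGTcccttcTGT

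Each stretch has 8 capital codons. The fifth codes for histidine in *Dzip3* and for cysteine in *Rnf8* and *Rnf168*. The *Dzip3* stretch lies at chr16:48926171-48927729 on the minus strand, spliced from exons 31 and 32 of 32, and covers residues 1144 to 1183 of 1204, so the RING is at the very end of a large protein. That of *Rnf8* lies at chr17:29771684-29772846 on the plus strand, spliced from exons 6 and 7 of 8, at residues 406 to 443 of 488. That of *Rnf168* lies at chr16:32278246-32278362 on the plus strand within exon 1 of 6, at residues 16 to 54 of 565, close to the start of the protein. A pattern of 8 such codons at RING spacing was found in 1.25% of 21346 genes with a complete coding sequence.

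In the 4 USP enzymes the capitals mark the codon of the catalytic cysteine, which attacks the bond between ubiquitin and the histone.
Usp16: ggactcagtaatttggggaatactTGTttc
Usp21: ggcctccgaaatctaggaaatacaTGCttc
Usp22: ggactgatcaacctggggaacacgTGTttc
Usp3: ggccttcgaaatttgggcaacactTGTttc

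These boxes lie at chr16:87470060-87470089 (plus, exon 6 of 18) for *Usp16*, at chr1:173215501-173215696 (minus, spliced from exons 3 and 4 of 13) for *Usp21*, at chr11:60976461-60976490 (minus, exon 5 of 13) for *Usp22* and at chr9:66391779-66391808 (minus, exon 6 of 15) for *Usp3*. *Usp16* and *Usp3* share 24 of 30 bases, the most of any pair, and *Usp21* and *Usp22* share 19 of 30, the fewest. The pattern behind this box was found in 0.183% of the 21346 genes. The remaining pair of proteases has other active sites, shown for contrast. In *Bap1* the capitals mark the codon of the catalytic cysteine, and in *Mysm1* the codons of the 3 residues (histidine, histidine, aspartate) that hold the zinc of a JAMM metalloprotease.
Bap1: aactctTGTgccactcacgcc
Mysm1: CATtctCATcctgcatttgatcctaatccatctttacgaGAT

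The *Bap1* stretch lies at chr14:32066651-32066671 (plus, exon 5 of 17) and the *Mysm1* stretch at chr4:94618889-94618930 (minus, exon 16 of 20). Their patterns were found in 0.0187% and 0.314% of genes. *Asxl1*, at chromosome 2 from 153171581 to 153229743 on the plus strand, codes for no enzyme and has no such stretch.

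The 10 genes spanned a wide range of levels, with *Asxl1* at the top and *Dzip3* and *Usp3* at the bottom. Mean levels over the 6 libraries were 16.5 ± 1.65 RPKM (SD, n = 6) for *Asxl1*, 11.2 ± 2.28 for *Usp22*, 9.91 ± 1.26 for *Bap1*, 6.81 ± 1.57 for *Rnf8* and 6.73 ± 0.507 for *Usp21*. The lower part of the order was 6.27 ± 0.782 RPKM for *Rnf168*, 5.80 ± 0.833 for *Mysm1*, 5.59 ± 0.699 for *Usp16*, 1.83 ± 0.566 for *Dzip3* and 1.17 ± 0.290 for *Usp3* (SD, n = 6). Among all listed genes *Asxl1* stood at percentile 89.6 of mean RPKM, *Dzip3* at 47.2 and *Usp3* at 40.3. *Rnf2*, for comparison, had a mean of 25.7 ± 4.65 RPKM (SD, n = 6), at percentile 94.4 and above every one of the 10 genes in every library.

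Only at 2 steps of this order did the values of neighbours not overlap: between *Asxl1* and *Usp22*, and between *Usp16* and *Dzip3*. *Bap1* was above *Rnf8*, and *Dzip3* above *Usp3*, in 6 of 6 libraries although their ranges overlapped. *Usp22* was above *Bap1* in 5 of 6 libraries and *Usp21* above *Rnf168* in 5 of 6. The order of *Rnf8* and *Usp21* held in 3 of 6 libraries, that of *Rnf168* and *Mysm1* in 4 of 6 and that of *Mysm1* and *Usp16* in 3 of 6, so these neighbours did not differ beyond their spread.

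**Figure D1:**
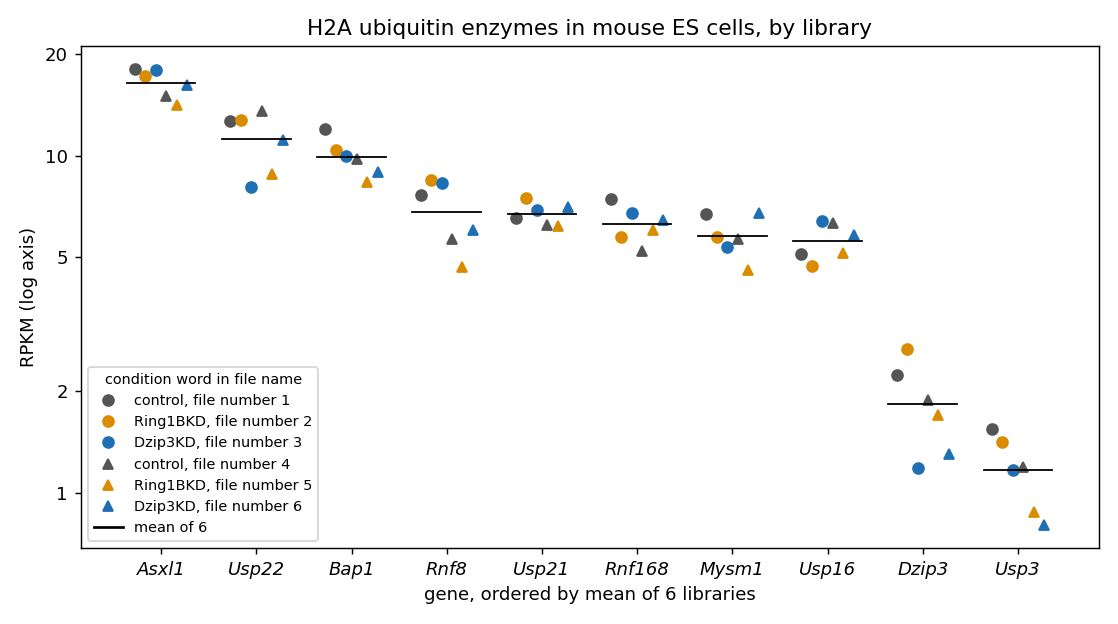
RPKM of each of the 10 enzyme genes (log axis) in each of the 6 libraries, ordered by the mean (black line); colour gives the condition word in the file name, circles are file numbers 1-3 and triangles 4-6. *Asxl1* lies between 14.1 and 18.1 RPKM, *Usp3* between 0.800 and 1.55, and the triangles of *Rnf8* lie below its circles.

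The spread over libraries also differed between the genes. *Dzip3* had the largest coefficient of variation, 30.9%, with a ratio of 2.27 between its highest and lowest library, and *Usp21* the smallest, 7.53%, with a ratio of 1.21. Because low genes scatter more by counting alone, the spread was also set against the reads, as the variance over libraries relative to that of a Poisson count (1 for counting error only, median 2.20 over 9221 genes with at least 10 reads on average). At the same relative spread this index is higher for a gene with more reads. It therefore does not rank genes of different level by how much they varied. The index was 6.86 for *Usp22*, 3.57 for *Asxl1*, 3.45 for *Dzip3*, 2.93 for *Mysm1* and 2.43 for *Rnf8*, all above the median of genes. It was 1.74 for *Bap1*, 1.39 for *Rnf168*, 1.34 for *Usp3* and 0.28 for *Usp21*, whose 43 to 56 reads per library differed less than counting error gives on average. *Rnf2* stood at 8.37, higher than any of the 9 enzymes with resolved reads. The index of *Asxl1* rested on 2192 reads in total and that of *Usp3* on 129, beside a median of 345 over genes. Yet the ratio between the highest and lowest library was 1.28 for *Asxl1* and 1.93 for *Usp3*. Whole reads could not be resolved for *Usp16*.

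Reads of some of these genes may be shared with an overlapping gene. *Rnf8* lies within the annotated span of *Ftsjd2* on the same strand and meets *1110021J02Rik* on the other strand, and neither of those symbols was listed. The ends of *Usp16* and *Cct8* overlap by 193 bases on opposite strands and those of *Asxl1* and *2500004C02Rik* by 229 bases, and both partners were listed. *Usp3* overlaps the antisense transcript *Gm15563*. The library kit keeps strand, but whether the counting used it is not given in the sources used here.

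The targeted genes were then read by label and by name. *Dzip3* was at 2.24 RPKM in library 1 (labelled control, named control), 2.68 in library 2 (labelled control, named Ring1BKD) and 1.18 in library 3 (labelled Ring1B-KD, named Dzip3KD). It was at 1.89 RPKM in library 4 (labelled Ring1B-KD, named control), 1.70 in library 5 (labelled Dzip3-KD, named Ring1BKD) and 1.31 in library 6 (labelled and named for Dzip3 knockdown). The lowest value within each set of files was thus that of the library named Dzip3KD, and both such libraries lay below the other 4, as did 4.74% of all genes tested. *Dzip3* was the 1 enzyme gene of the 10 with this pattern. By label the lowest library carried Ring1B-KD, and the libraries labelled Dzip3-KD did not both lie below the other 4. In that arrangement 2 enzyme genes, *Usp3* and *Bap1*, had this pattern, against 13.2% of all genes tested.

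These *Dzip3* values rest on 39, 53, 23, 36, 32 and 27 recovered reads in libraries 1 to 6, at a recovered length that matched no annotated one. Relative to the library named control in the same set, *Dzip3* stood at 52.7% (exact 95% interval 30.1 to 90.5) in library 3 and at 69.2% (40.4 to 117) in library 6. In the libraries named Ring1BKD it stood at 119% (77.5 to 186) in library 2 and at 89.9% (54.1 to 149) in library 5. Only the interval of library 3 lies below 100%. The ES cell markers summed to 1534 RPKM in library 3, the lowest of the 6, against 1956 RPKM in library 1, and to 2039 RPKM in library 6 against 2103 RPKM in library 4, and their part in the difference was not tested. The intervals cover counting error only, with reads taken as independent, and leave out the spread between libraries. Reads without molecular identifiers are not independent molecules, so the intervals may be too narrow even for counting error. In RNA from a whole culture, fewer cells with the transcript and less transcript per cell cannot be told apart.

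In the fit by name the difference of *Dzip3* did not pass the test. Its mean was 2.06 ± 0.250 RPKM (SD, n = 2) in the libraries named control, 2.19 ± 0.693 in those named Ring1BKD and 1.24 ± 0.0879 in those named Dzip3KD. On the log2(RPKM + 1) scale, which understates differences of low genes, the libraries named Dzip3KD differed from those named control by -0.45 (SE 0.21, 95% interval -0.94 to 0.05, limma adjusted p = 0.754) and from those named Ring1BKD by -0.49 (SE 0.21, limma adjusted p = 0.501). On recovered reads, limma's voom gave -0.73 (SE 0.29, adjusted p = 0.630) for the former on the log2 scale of reads. Without library 3 the difference from control was -0.25, and without library 6 it was -0.64. By label the difference of *Dzip3* from control was as large: -0.47 (SE 0.24, limma adjusted p = 0.458) for Dzip3-KD and -0.46 (SE 0.24, limma adjusted p = 0.902) for Ring1B-KD. By label, the difference between Dzip3-KD and Ring1B-KD was -0.01 (95% interval -0.56 to 0.54, limma adjusted p = 0.996). Leaving out a single library moved the last of these between -0.21 and 0.19.

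*Rnf2*, the other targeted gene, was at 30.6, 20.4 and 26.8 RPKM in libraries 1 to 3 and at 28.8, 19.4 and 28.2 RPKM in libraries 4 to 6. The values below all others are those of libraries 2 and 5, both named Ring1BKD and labelled control 2 and Dzip3-KD 1. Both libraries named Ring1BKD were below the other 4 for 8.49% of all genes tested and for 0 of the 10 enzyme genes. Relative to the library named control, *Rnf2* stood at 66.8% (exact 95% interval 55.6 to 80.1) in library 2 and 67.4% (55.9 to 81.2) in library 5, on 192 to 306 reads per library. The difference by name was -0.55 on the log2(RPKM + 1) scale (SE 0.13, limma unadjusted p = 0.00302, adjusted p = 0.232), so it did not pass adjustment over all genes. By label the direction was the opposite: Ring1B-KD differed from control by 0.15 (SE 0.24, limma adjusted p = 0.965). The ES cell markers summed to 1713 and 1834 RPKM in the libraries named Ring1BKD and to 1956 and 2103 RPKM in those named control, and their part in the difference was not tested. In the libraries named Dzip3KD the difference of *Rnf2* from control was -0.11 (SE 0.13, limma adjusted p = 0.904).

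**Figure D2:**
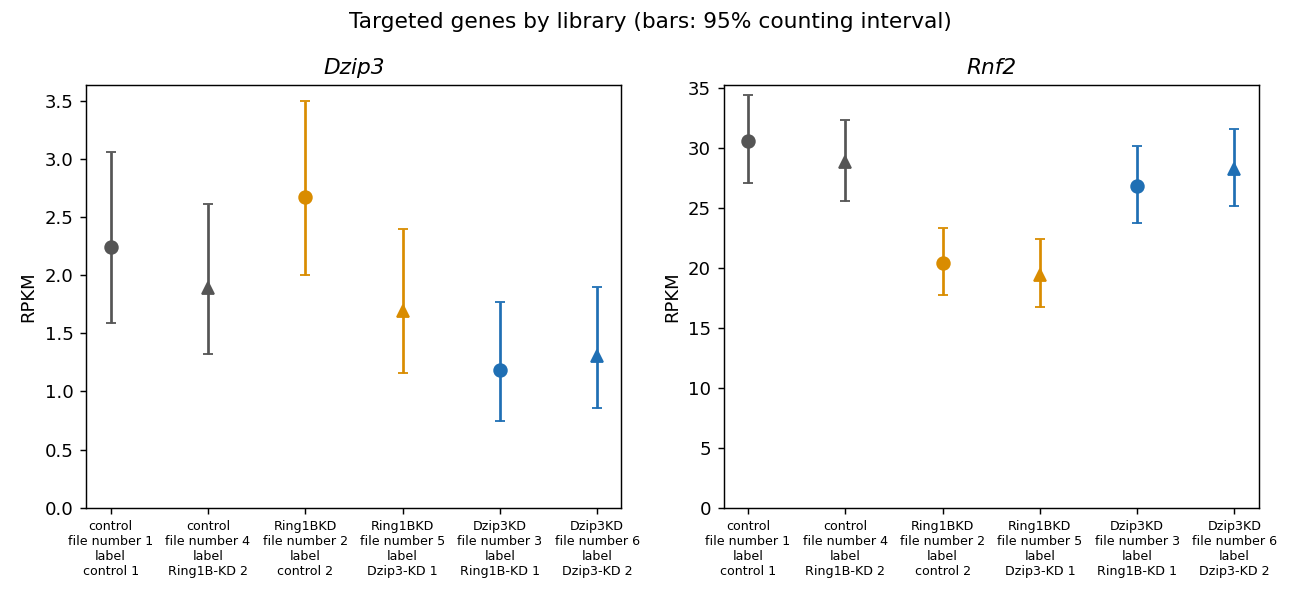
RPKM of *Dzip3* and *Rnf2* in each library, grouped by the condition word in the file name, with the sample label under each point; bars are exact 95% counting intervals and circles and triangles are file numbers 1-3 and 4-6. *Dzip3* is lowest, at 1.18 and 1.31 RPKM, in the libraries named Dzip3KD, and *Rnf2* is lowest, at 20.4 and 19.4 RPKM, in those named Ring1BKD.

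No enzyme gene passed the test in any comparison between conditions. By name, limma with the set of files as a block called 0 of the 10 enzyme genes between Dzip3KD and control at an adjusted p under 0.05, against 0% of all genes tested, and 0 of 10 at an unadjusted p under 0.05, against 6.52%. Between Ring1BKD and control it called 0 of 10 adjusted, against 0.416% of all genes, and 0 of 10 unadjusted, against 8.31%. Between Dzip3KD and Ring1BKD it called 0 of 10 adjusted, against 0.676%, and 0 of 10 unadjusted, against 10.1%. By label, limma called 0 of 10 adjusted in each of the 3 comparisons, against 0% of all genes in each. Unadjusted, it called 0 of 10 for Ring1B-KD against control (background 5.1%), 1 of 10, *Rnf8*, for Dzip3-KD against control (12.2%) and 0 of 10 for Dzip3-KD against Ring1B-KD (4.63%). On recovered reads voom called 0 of the 9 resolved enzyme genes adjusted in each of these 6 comparisons. The share over all genes under voom was 0.00939% for Dzip3KD against control by name, 0.807% for Ring1BKD against control, 1.35% for Dzip3KD against Ring1BKD and 0% in each label comparison. At an unadjusted p under 0.05, voom by name picked 2 of 9, *Dzip3* and *Usp22*, for Dzip3KD against control (background 7.1%), 0 of 9 for Ring1BKD against control (8.73%) and 1 of 9, *Dzip3*, for Dzip3KD against Ring1BKD (11.3%). By label it picked 2 of 9, *Dzip3* and *Usp3*, for Dzip3-KD against control (13.9%), 1 of 9, *Dzip3*, for Ring1B-KD against control (5.17%) and 0 of 9 for Dzip3-KD against Ring1B-KD (5.6%).

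Among the other ligases, *Rnf8*, the ligase that starts the ubiquitin response at breaks, was at 7.67, 8.47 and 8.32 RPKM in libraries 1 to 3 and at 5.66, 4.67 and 6.05 RPKM in libraries 4 to 6. The values of the 2 sets did not overlap, whereas no named condition was the lowest in both sets. The difference by name was 0.09 (95% interval -0.30 to 0.49) for Dzip3KD and -0.05 (-0.45 to 0.34) for Ring1BKD, each against control on the log2(RPKM + 1) scale. *Rnf168*, which extends the ubiquitin marks begun by RNF8, was at 7.43, 5.75 and 6.77 RPKM in libraries 1 to 3 and at 5.22, 6.03 and 6.44 RPKM in libraries 4 to 6. In its case the library named control was the highest of set 1-3 and the lowest of set 4-6, and the differences were 0.07 (-0.35 to 0.49) for Dzip3KD and -0.07 (-0.49 to 0.35) for Ring1BKD.

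Among the deubiquitinases, *Usp22*, the enzyme of the SAGA coactivator complex that acts on H2A and H2B, had the largest index of spread. It was at 12.7, 12.8 and 8.07 RPKM in libraries 1 to 3 and at 13.6, 8.82 and 11.2 RPKM in libraries 4 to 6, on 121 to 200 reads. Both libraries named Dzip3KD lay below both named control, but the low library of set 4-6 was the one named Ring1BKD. In library 3 it stood at 63.6% of the library named control (exact 95% interval 49.96 to 80.8) and in library 6 at 82.1% (66.7 to 101). In the libraries named Ring1BKD it stood at 101% (81.7 to 125) in library 2 and at 64.7% (51.5 to 81.2) in library 5. The intervals of these 2 libraries did not overlap. The difference was -0.43 (SE 0.22, limma adjusted p = 0.754) for Dzip3KD and -0.28 (SE 0.22, limma adjusted p = 0.759) for Ring1BKD. Without library 3 the former was -0.12 and without library 6 it was -0.74, and without library 5 the latter was 0.09 and without library 2 it was -0.66.

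*Usp3*, a deubiquitinase of H2A and H2B linked to S phase progression, was at 1.55, 1.41 and 1.17 RPKM in libraries 1 to 3 and at 1.19, 0.878 and 0.800 RPKM in libraries 4 to 6. Within each set the order was control, Ring1BKD and Dzip3KD by name, from high to low. The share of all genes with this order was not computed. Over all genes tested, the median difference from control was -0.08 for Ring1BKD and -0.03 for Dzip3KD. With 16 to 27 reads per library the intervals were wide: 75.6% of control (exact 95% interval 40.9 to 139) in library 3 and 67.1% (32.9 to 134) in library 6. The difference between Dzip3KD and control was -0.26 (SE 0.20, limma adjusted p = 0.832), which at this depth cannot be told from no difference.

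*Usp16*, which removes ubiquitin from H2A before mitosis and at developmental genes, was at 5.11, 4.71 and 6.40 RPKM in libraries 1 to 3 and at 6.32, 5.14 and 5.83 RPKM in libraries 4 to 6. *Usp21*, which removes ubiquitin from H2A at transcription start sites, was at 6.54, 7.49 and 6.93 RPKM and at 6.24, 6.18 and 7.04 RPKM in the same order. *Usp21* was higher in both libraries named Dzip3KD than in both named control, by 0.11 on the log2(RPKM + 1) scale (95% interval -0.26 to 0.49, limma adjusted p = 0.915). *Usp16* overlapped between those conditions (0.09, -0.31 to 0.49). Its difference between the libraries named Dzip3KD and those named Ring1BKD was 0.26 (-0.14 to 0.67, limma adjusted p = 0.667), beside a median of 0.05 over all genes tested.

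*Bap1*, the H2A deubiquitinase of the polycomb PR-DUB complex, was at 12.0, 10.4 and 10.01 RPKM in libraries 1 to 3 and at 9.77, 8.36 and 8.93 RPKM in libraries 4 to 6. The library named control was the highest of each set, a pattern whose share over all genes was not computed. The differences of *Bap1* by name were -0.18 (95% interval -0.52 to 0.16) for Dzip3KD and -0.19 (-0.53 to 0.15) for Ring1BKD, beside medians of -0.03 and -0.08 over all genes. Its cofactor gene *Asxl1* was at 18.1, 17.3 and 18.0 RPKM in libraries 1 to 3 and at 15.0, 14.1 and 16.2 RPKM in libraries 4 to 6. With 308 to 406 reads it was measured most precisely of the 9 genes with resolved reads, and its differences were 0.05 (-0.27 to 0.36) for Dzip3KD and -0.07 (-0.39 to 0.24) for Ring1BKD. *Mysm1* was at 6.71, 5.74 and 5.35 RPKM in libraries 1 to 3 and at 5.67, 4.58 and 6.77 RPKM in libraries 4 to 6. In set 1-3 the library named Dzip3KD was its lowest and in set 4-6 its highest, with a difference of -0.03 (-0.47 to 0.42).

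As a group, the enzyme genes had a median difference of 0.01 for Dzip3KD against control, beside -0.03 over all genes tested, and of -0.11 for Ring1BKD against control, beside -0.08. Both libraries named Dzip3KD lay below both named control for 3 of the 10 enzyme genes (*Dzip3*, *Usp22* and *Usp3*), against 15.2% of all genes. Both libraries named Ring1BKD lay below both named control for 0 of 10, against 21.6%. In the opposite direction, Dzip3KD lay above control for 1 of 10 (*Usp21*), against 11.2% of all genes, and Ring1BKD for 0 of 10, against 9.11%. By label, Dzip3-KD lay below control for 6 of 10 (*Dzip3*, *Rnf8*, *Usp22*, *Usp3*, *Bap1* and *Asxl1*), against 30.3% of all genes, and Ring1B-KD lay below control for 4 of 10 (*Dzip3*, *Usp3*, *Bap1* and *Mysm1*), against 18.9%. Both libraries labelled control have file numbers 1-3 and both labelled Dzip3-KD have numbers 4-6, so that comparison has no value within a set and is tied to the sets only through the libraries labelled Ring1B-KD, 1 in each set. With the set of files as a block, limma called 0 of 10 for it at an adjusted p under 0.05, against 0% of all genes, and the difference of *Dzip3* became -0.87 (SE 0.37, limma adjusted p = 0.829).

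The 2 sets of files were also compared directly, with the condition word as a term in the fit. All 3 libraries of numbers 4-6 lay below all 3 of numbers 1-3 for 3 of the 10 enzyme genes, *Rnf8*, *Bap1* and *Asxl1*, against 15.5% of all genes. limma called 0 of 10 at an adjusted p under 0.05, against 7.62% of all genes (879 genes), and 1 of 10, *Rnf8*, at an unadjusted p under 0.05, against 26.5%. *Rnf8* had a mean of 8.15 ± 0.422 RPKM (SD, n = 3) in numbers 1-3 and 5.46 ± 0.708 (SD, n = 3) in numbers 4-6, a difference of -0.51 on the log2(RPKM + 1) scale (SE 0.14, limma adjusted p = 0.0672). With voom on recovered reads it was -0.57 (SE 0.20, limma adjusted p = 0.0461), just past the threshold, which 16.1% of all genes passed with voom. *Bap1* differed by -0.24 (SE 0.12, limma adjusted p = 0.259) and *Asxl1* by -0.23 (SE 0.11, limma adjusted p = 0.244). *Usp3* differed by -0.28 (SE 0.17, limma adjusted p = 0.325) and *Dzip3* by -0.18 (SE 0.18, limma adjusted p = 0.561). The median of the 10 was -0.16, beside -0.04 over all genes.

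Summed markers of 3 of the 4 other lineages did not overlap between the sets, while those of fibroblasts and of ES cells did. The 4 neural genes summed to 3.51 to 5.98 RPKM in numbers 1-3 and to 8.15 to 9.33 RPKM in numbers 4-6. The 4 trophectoderm genes summed to 4.10 to 6.81 and 1.68 to 2.95 RPKM, and the 6 primitive endoderm genes to 1.75 to 2.88 and 1.09 to 1.25 RPKM. Under 0.5 RPKM in every library were 4 of the 6 primitive endoderm genes, 1 of the 4 neural genes and 0 of the 4 trophectoderm genes. With 3 reads on a 2 kb transcript at 0.419 to 0.497 RPKM, the lowest sums may rest on few reads. Among all genes tested, 15.5% had all 3 libraries of numbers 4-6 below all 3 of numbers 1-3. That share is for single genes in the lower direction, and none was computed for sums or for the higher direction. Whether a lack of overlap is particular to these markers was therefore not tested. The part of the summed markers in the differences between the sets was not tested.

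**Figure D3:**
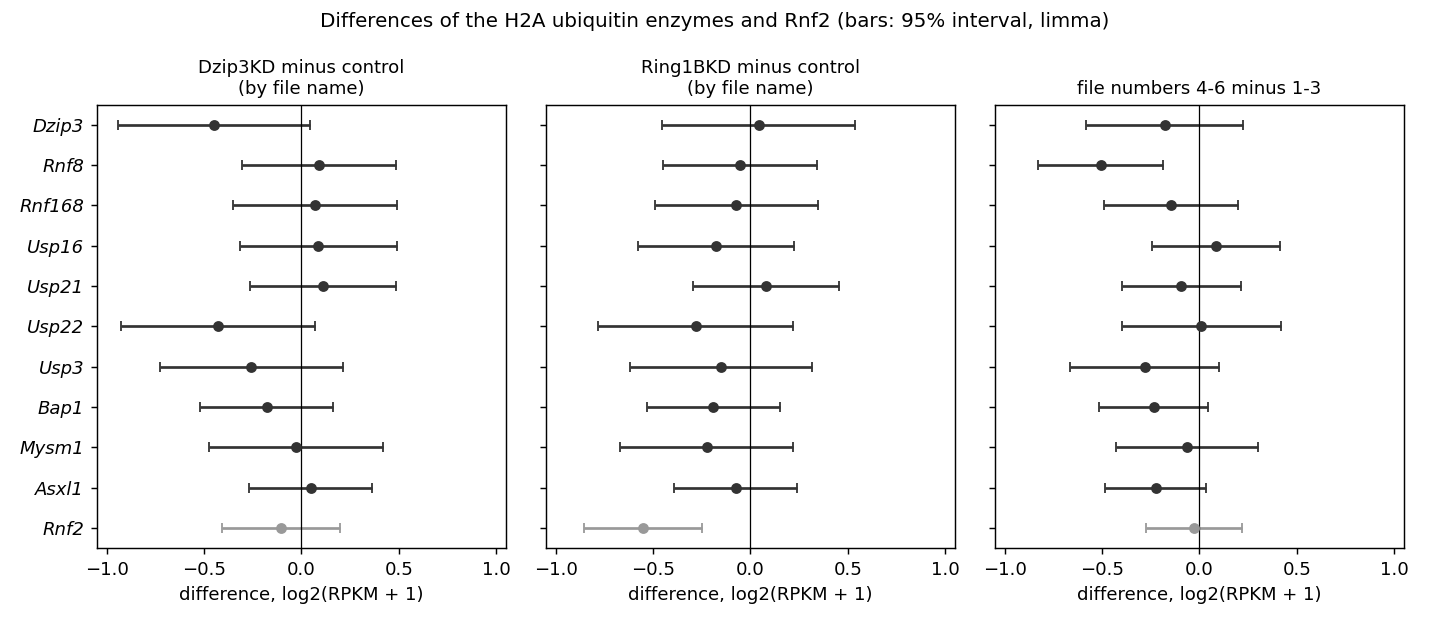
Difference on the log2(RPKM + 1) scale (points) with its 95% interval (bars, limma) for each enzyme gene and for *Rnf2*, for Dzip3KD and Ring1BKD against control by file name and for file numbers 4-6 against 1-3. The intervals that do not reach 0 are those of *Rnf2* for Ring1BKD (-0.86 to -0.25) and of *Rnf8* between the sets (-0.83 to -0.19). Intervals are not adjusted for the number of genes, and neither difference passed adjustment in these fits (limma adjusted p = 0.232 and 0.0672).

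A list of 71 other genes of H2A ubiquitin was examined next, in 7 groups by role. Of these 69 passed the filter on low values. The group of H2A ligases and their E2 enzymes (15 genes) had a median level of 7.44 RPKM and ranged from 1.94 RPKM for *Ring1*, the paralogue of *Rnf2*, to 53.4 RPKM for *Ddb1*, a subunit of CUL4 ligases. The BAP1 complex (9 genes) ranged from 0.367 RPKM for *Asxl3* to 30.2 RPKM for *Hcfc1*. *Asxl2*, at 9.18 RPKM, and *Asxl3* were both below *Asxl1* on this scale per length. The SAGA deubiquitinase module and relatives of USP22 (7 genes) had the lowest median of the groups, 1.73 RPKM, and *Usp27x* and *Usp51*, paralogues that use the same module, stood at 1.73 and 0.580 RPKM against 11.2 for *Usp22*. Genes of the double-strand break response (15) had a median of 5.55 RPKM with *H2afx*, the H2A variant phosphorylated at breaks, at 141.9 RPKM. Other histone deubiquitinases (9) had a median of 5.65, readers and ubiquitin genes (9) of 25.8 and the corepressor partners of Dzip3 (7) of 6.13 RPKM.

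**Figure D4:**
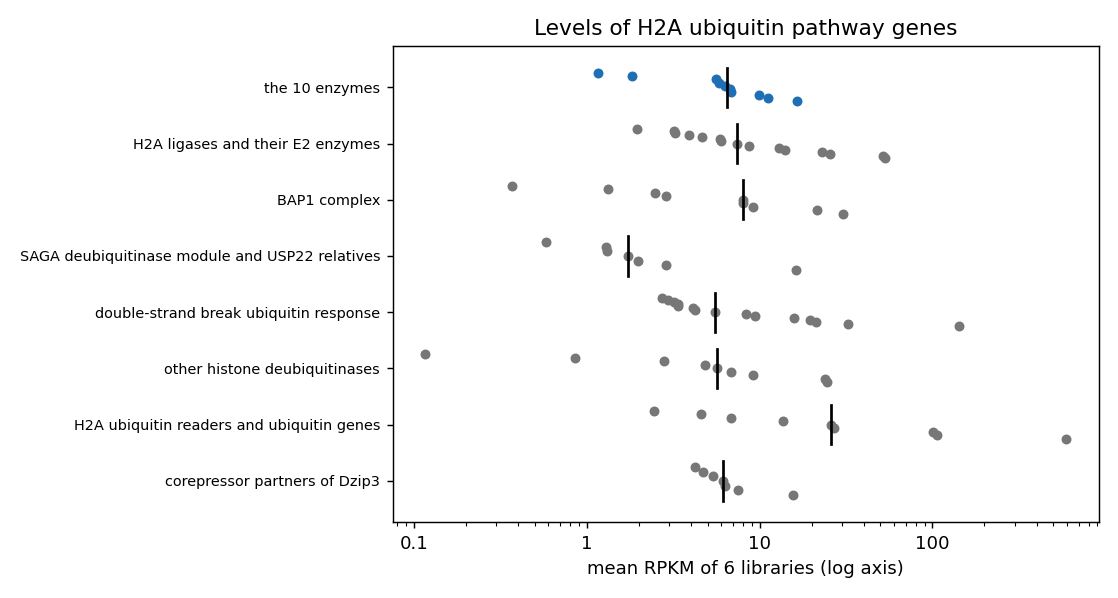
Mean RPKM over 6 libraries (log axis) of the 10 enzyme genes (blue) and of 71 other genes of H2A ubiquitin in 7 groups (grey), with the median of each group as a black line. The SAGA module has the lowest median, 1.73 RPKM, and readers and ubiquitin genes the highest, 25.8 RPKM.

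Of the 69 genes tested, 0 were called by limma at an adjusted p under 0.05 in either comparison with control by name. At an unadjusted p under 0.05, 5 were lower, *Rnf2* among them, and 0 higher between Ring1BKD and control. Of all 11538 genes tested, 5.2% (600) were lower and 359 higher there. Between Dzip3KD and control 1 was lower and 0 higher, against 3.34% (385) lower and 367 higher among all genes. Neither count of lower genes sets the list apart from all genes, and the values below describe single genes. Besides *Rnf2*, the genes lower for Ring1BKD included *Hdac1*, *Otub1* and *Brca1*. *Hdac1*, a deacetylase of corepressor complexes, was at 3.70 and 2.95 RPKM in libraries 2 and 5 and at 5.89 and 5.22 RPKM in libraries 1 and 4 (difference -0.60, SE 0.17, limma adjusted p = 0.377). *Brca1*, which forms an H2A ligase with BARD1, was at 12.8 and 11.1 RPKM against 16.2 and 14.7 RPKM (-0.34, SE 0.14, limma adjusted p = 0.567). *Otub1*, whose product inhibits the E2 enzyme that works with RNF168, was low in both named knockdowns. It stood at 20.6 and 18.4 RPKM in the libraries named control, at 15.6 and 13.0 in those named Ring1BKD and at 16.4 and 11.1 in those named Dzip3KD. The differences were -0.42 (SE 0.15, limma adjusted p = 0.490) and -0.49 (SE 0.15, limma adjusted p = 0.754), and both use the same control libraries. *Otub1* was also lower by label for Dzip3-KD against control (-0.54, SE 0.20, limma adjusted p = 0.355). Between the sets of files it was lower in numbers 4-6 (-0.31, SE 0.12, limma adjusted p = 0.161).

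Between the sets of files, 3 of the 69 genes were lower and 0 higher at an adjusted p under 0.05. Of all 11538 genes tested, 3.67% (424) were lower and 455 higher. The genes described here were named after their values were seen. *Hcfc1* was at 35.3, 34.6 and 42.2 RPKM in libraries 1 to 3 and at 24.98, 20.6 and 23.5 RPKM in libraries 4 to 6 (difference -0.67, SE 0.11, limma adjusted p = 0.0184). *Ube2d3*, an E2 enzyme, differed by -0.48 (SE 0.11, limma adjusted p = 0.0436). The median over the 69 genes was -0.09, beside -0.04 over all genes.

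The genes whose values ran most like those of *Dzip3* over the 6 libraries were *Mrpl55* (Pearson r = 0.981 on the log2(RPKM + 1) scale), *Trappc12* (0.979), *Nubp2* (0.974), *Cul2* (0.973) and *Drg1* (0.971), among 5502 genes that averaged 5 RPKM or more. *Mrpl55*, a mitochondrial ribosomal protein gene, was at 10.001, 11.1 and 7.21 RPKM in libraries 1 to 3 and at 9.71, 8.34 and 7.33 RPKM in libraries 4 to 6. *Cul2*, a cullin scaffold of ubiquitin ligases, was at 7.66, 8.06 and 4.85 RPKM and at 6.99, 6.18 and 5.70 RPKM. Both genes were lowest within each set in the library named Dzip3KD, as *Dzip3* was. That follows largely from picking them by their likeness to *Dzip3*, so it adds nothing about the file names. With so few libraries 51 of the 5502 genes had an r above 0.9 and 24 an r below -0.9, and these values share library, depth and set of files, so the likeness is a description only.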

How the data were processed

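Whole-transcriptome sequencing had been done on 6 libraries with a stranded mRNA kit on a MiSeq instrument. The authors deposited RPKM values, 1 list per library without pooling. The study's methods name mm9 as the genome of the alignment and state that reads unique to a gene were used. The annotation and software versions are not given in the sources used here. A change in RNA composition between libraries is not corrected for in RPKM.

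Whole reads were recovered from the steps in the deposited RPKM for 15493 genes (93%), against 0.85% of 2000 genes with values altered at random (relative tolerance 2e-05, lengths of 100 to 20000 bp, values under 0.001 RPKM as 0). These gave 1031426 to 1217324 reads per library, against 3015350 to 3583613 mapped reads, so most mapped reads were not recovered. Ratios of reads have exact conditional 95% intervals. The shortest length that fitted was taken, and it equalled an annotated one for 23.3% of genes. It did so for *Bap1*, *Asxl1* and *Rnf2* but not for *Dzip3* or the other resolved enzyme genes, whose read numbers rest on unconfirmed lengths.

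Differences were fitted with limma 3.58.1 (R 4.3.3, variance trend) on log2(RPKM + 1) for the 11538 genes averaging 0.5 RPKM or more, with Benjamini-Hochberg adjustment over all of them and a threshold of 0.05. By label there was no covariate. By file name the set of files (1-3, 4-6) was a block. Libraries with the same set deviated together from the means of their named condition (r = 0.473, 0.434 and 0.418 for the 3 pairs of conditions). The study calls its RNA-seq duplicates biological without saying what separates them, so p-values measure the spread between these libraries. The code was tested on simulated data. Alternatives were a pseudocount of 0.1, a filter at a mean of 2 RPKM and none, scaling by the 75th percentile, fits of the 4 libraries compared, blocks, voom on recovered reads, crossed numbers and leaving out each library. The comparison of the sets, voom and the crossed numbers were added after seeing the data.

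The enzyme genes, the list of 71 genes and the arrangements were chosen with earlier results of these data known. Besides the 10 enzyme genes and *Rnf2*, the text names listed genes with an unadjusted p under 0.05 against control by file name (at most 6 each) and the 5 genes most correlated with *Dzip3*. Some listed genes that met this rule or passed the test are not reported here. Of the listed genes described by level alone, those at the ends of a group or paralogous to an enzyme gene were picked after their values were seen. Sequences came from the NCBIM37 genome and GENCODE annotation. Code used Python 3.11.15, pandas 2.3.3, numpy 2.4.6, scipy 1.17.1 and matplotlib 3.10.9.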

Additional observations from a re-analysis of the deposited data

How the results depend on the processing

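Libraries are left out here by label, as control 1 and 2 (libraries 1 and 2), Ring1B-KD 1 and 2 (3 and 4) and Dzip3-KD 1 and 2 (5 and 6). Ring1BKD against control by name gave 48 genes, against 21 with a pseudocount of 0.1, 0 without a filter, 0 without the block for file numbers and 86 with voom on recovered reads. Leaving out a library gave 3 to 61, with 3 without Dzip3-KD 1. Dzip3KD against control gave 0 genes (limma; 752 at an unadjusted p under 0.05), 1 with voom, and 0 to 4 with a library left out, with 4 without Ring1B-KD 2 and 1 without Dzip3-KD 2. Dzip3KD against Ring1BKD gave 78 genes, against 42 with a pseudocount of 0.1, 0 without a filter, 172 with the 4 libraries compared, 0 without the block and 144 with voom. Leaving out a library gave 26 to 172: 172 without control 1, 171 without Ring1B-KD 2, 26 without Ring1B-KD 1, and 39 and 40 without Dzip3-KD 1 and 2. The sets of files gave 879 genes, 455 higher and 424 lower in numbers 4-6 (564 and 341 with scaling by the 75th percentile), against 0 without a filter, 1711 with voom and 351 to 509 with a library left out, where every library moved the count by over 1.5 times (351 without Dzip3-KD 1, 367 without control 2). By label, Dzip3-KD against control gave 0 genes (1411 unadjusted; voom 0), 24 with the 4 libraries compared and 0 to 27 with a library left out (25 and 27 without Ring1B-KD 1 and 2). The cause of these differences was not tested.

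The replicate numbers in the labels did not pair the libraries (correlations of deviations -0.036, -0.242 and 0.0444), and with them as a replicate block Dzip3-KD against control gave 1 gene and the other label comparisons 0. With the numbers crossed it gave 0 genes.

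Scaling by the 75th percentile turned small differences: *Rnf8* 0.044, *Rnf168* 0.026 and *Asxl1* 0.031 for Ring1BKD, *Mysm1* 0.0079 for Dzip3KD, each against control by name, and *Dzip3* 0.031 for Dzip3-KD against Ring1B-KD by label. It moved the median of all genes by less than 0.1. Leaving out a library gave, for Ring1BKD against control, -0.29 to 0.15 for *Rnf168*, -0.16 to 0.24 for *Dzip3*, -0.033 to 0.19 for *Usp21*, -0.23 to 0.12 for *Rnf8* and -0.66 to 0.094 for *Usp22*. For Dzip3KD against control it gave -0.0030 to 0.19 for *Rnf8*, -0.061 to 0.24 for *Usp16*, -0.29 to 0.24 for *Mysm1*, -0.15 to 0.29 for *Rnf168* and -0.011 to 0.11 for *Asxl1*. It gave -0.21 to 0.19 for *Dzip3* between Dzip3-KD and Ring1B-KD by label. A filter at 2 RPKM removed *Dzip3* and *Usp3*, which then had no value. Depth limits the low genes: *Dzip3* and *Usp3* had 16 to 53 reads per library.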
